A study of Mus musculus with 5 samples.

Results

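The forkhead (Fox) genes were examined in peak lists of trimethylated histone H3 lysine 27 (H3K27me3) from mouse embryonic fibroblasts (MEFs). Members were all protein-coding genes on chromosomes 1 to 19 of the GENCODE vM1 annotation of mm9 whose symbol is Fox followed by a letter from a to s and a number, which gave 40 of 21418 protein-coding genes. Foxo4, Foxp3 and Foxr2 lie on chromosome X and were outside the rule, as were Foxl1, which this annotation lists as a pseudogene, and the lincRNA Foxl2os. Foxf1 carries the symbol Foxf1a in this annotation and is written so here.

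Chromatin immunoprecipitation followed by sequencing (ChIP-Seq) for H3K27me3 was done in MEFs from a mid-gestation embryo in which Eed, a gene for a subunit of Polycomb Repressive Complex 2 (PRC2), was floxed. The 3 lines compared were this parental line stably transduced with a lentivirus for H3.3K27R, for H3.3K27M or for human EZHIP (hEZHIP), with no Cre treatment stated for them. In K27R, arginine replaces the lysine that PRC2 methylates. In K27M, methionine replaces it, and this oncohistone of diffuse midline glioma is an inhibitor of PRC2. EZHIP is the protein of PFA ependymoma that also inhibits PRC2. The vector carried puromycin selection and was driven by the EF1a promoter and the cells were fibroblasts, so neither the promoter nor the cell was that of the tumours. The untransduced parental Control and the EEDnull line, a single clone, were not analysed here, so the K27R list served as the reference.

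Each of the 3 lines had 1 library, so differences between lists have no replicate check and no p-value is given. The K27R list held 12845 peaks, K27M 3736 and EZHIP 4992, and on chromosomes 1 to 19 they covered 20.1%, 1.72% and 1.46% of the sequence. The lists hold positions without read counts, so depth was unknown. The shortest gap between autosomal peaks was 0 bp in K27R, 5200 bp in K27M and 1200 bp in EZHIP, although the study's methods give a single gap setting for joining H3K27me3 regions, and whether neighbouring regions were joined alike in the 3 lists is not known. Intervals below are exact 95% binomial intervals for shares and order-statistic intervals for medians. They cover counting error only and treat genes as independent, although neighbouring members share peaks. As a check of the cell type, 1 of 12 fibroblast markers (Pdgfra) had its start site in a K27R peak, against 6 of 6 endoderm, 4 of 6 neural, 3 of 6 epithelial and 3 of 5 blood markers. The share of all protein-coding genes was 28.2%. A further blood marker, Spi1, was not found under that symbol on chromosomes 1 to 19 of the annotation.

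Fox proteins share the forkhead or winged-helix domain, which binds DNA, and subfamilies named by letters act at different times and in different tissues. Foxa factors open chromatin in endoderm, Foxd, Foxe and Foxi factors act in neural crest, placodes and other embryonic tissues, Foxc and Foxf factors in mesoderm, and Foxo factors carry insulin and stress signals in most cells. H3K27me3 is the mark through which PRC2 keeps developmental genes silent outside their lineage. In mammals PRC2 is recruited to CpG islands, from which the mark spreads over flanking chromatin.

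The promoters of 4 members are shown because each stands for an outcome of the comparison: the member with the median CpG content among those in all 3 lists (Foxe3), in K27R and K27M (Foxd2), in K27R alone (Foxp4) and in no K27R peak (Foxj1). Each run is the 300 bp before the start site in mm9, on the strand of the gene, with every CG in capitals.
Foxe3: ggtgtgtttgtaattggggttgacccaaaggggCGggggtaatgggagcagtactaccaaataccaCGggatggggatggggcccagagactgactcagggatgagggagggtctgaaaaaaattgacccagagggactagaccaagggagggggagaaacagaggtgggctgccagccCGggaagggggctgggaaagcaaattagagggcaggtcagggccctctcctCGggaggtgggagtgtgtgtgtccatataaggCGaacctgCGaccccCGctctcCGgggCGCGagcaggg
Foxd2: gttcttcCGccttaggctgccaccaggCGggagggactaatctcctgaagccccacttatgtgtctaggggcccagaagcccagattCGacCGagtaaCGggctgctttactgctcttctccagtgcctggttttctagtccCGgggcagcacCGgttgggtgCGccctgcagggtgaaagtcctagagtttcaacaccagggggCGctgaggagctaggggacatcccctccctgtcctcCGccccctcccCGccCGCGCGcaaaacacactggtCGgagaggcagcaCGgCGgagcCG
Foxp4: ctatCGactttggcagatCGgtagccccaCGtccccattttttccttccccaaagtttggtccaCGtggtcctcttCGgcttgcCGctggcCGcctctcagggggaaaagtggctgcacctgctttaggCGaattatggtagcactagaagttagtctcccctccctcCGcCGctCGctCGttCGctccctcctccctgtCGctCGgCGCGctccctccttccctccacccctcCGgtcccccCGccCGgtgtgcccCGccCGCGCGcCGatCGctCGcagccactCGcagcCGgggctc
Foxj1: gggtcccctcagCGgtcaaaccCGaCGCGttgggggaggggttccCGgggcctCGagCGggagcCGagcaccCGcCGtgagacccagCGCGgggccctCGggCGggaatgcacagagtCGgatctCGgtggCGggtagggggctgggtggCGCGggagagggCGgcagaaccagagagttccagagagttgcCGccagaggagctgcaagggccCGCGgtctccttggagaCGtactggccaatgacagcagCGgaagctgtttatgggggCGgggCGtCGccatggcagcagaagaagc
The Foxe3 sequence is chr4:114598658-114598957, Foxd2 chr4:114581504-114581803, Foxp4 chr17:48061595-48061894 and Foxj1 chr11:116196714-116197013, all on the minus strand. They held 10, 18, 29 and 28 CG, and over all members the medians were 22 CG in all 3 lists, 18 in K27R and K27M and 19 without K27R (3 to 45), so the order of the 4 printed promoters is not that of the family.

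A larger share of Fox start sites than of all protein-coding start sites lay in H3K27me3 peaks, and nearly every member in a K27R peak was also in a K27M peak. The start site (the 5′ end of the gene) lay in a K27R peak in 21 of 40 members (52.5%, 36.1 to 68.5), against 28.2% of all protein-coding genes. It lay in a K27M peak in 20 (50%, 33.8 to 66.2), against 8.94% of all genes. It lay in an EZHIP peak in 13 (32.5%, 18.6 to 49.1), against 7.96%. All of the K27M and EZHIP members were among the 21 in K27R.

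Of the 21 members with a K27R peak, 20 (95.2%, 76.2 to 99.9) had the start site in a K27M peak, where 31.6% of all 6041 such genes did. In EZHIP cells 13 (61.9%, 38.4 to 81.9) did, against 28.2%. The 13 members in both residual lists made 61.9%, against 24.1%, and 1 member (4.76%, 0.120 to 23.8) was in neither, against 64.3%. There were 7 members (33.3%, 14.6 to 57.0) in K27M and not in EZHIP, against 7.50% of all such genes. In EZHIP and not in K27M there were 0, with an upper bound of 16.1%, against 4.02%. When a peak within 5000 bp of the start site sufficed, 4 of 25 members (16.0%) were in neither and 5 (20%) in K27M and not in EZHIP. Every member that separated the residual lists was thus absent from EZHIP, but the interval for members in EZHIP alone contained the 4.02% of all genes. The background share lay below the Fox interval for K27M and for EZHIP.

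**Figure D1:**
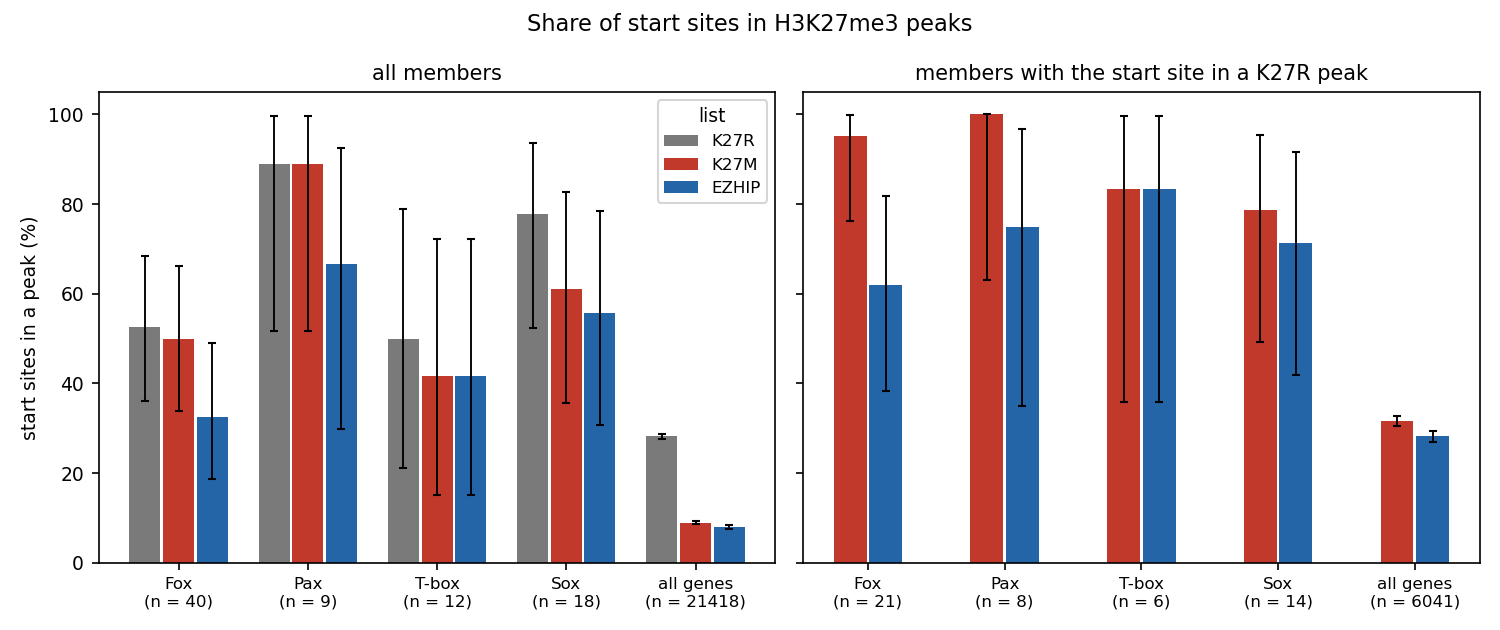
Percent of start sites in a peak of each list (y axis) for Fox, Pax, T-box and Sox genes and all protein-coding autosomal genes (x axis, with n); bars are shares and lines are exact 95% binomial intervals. On the left all members are counted and on the right those with the start site in a K27R peak, where Fox stood at 95.2% in K27M and 61.9% in EZHIP and all genes at 31.6% and 28.2%.

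Other families of developmental transcription factors also had high shares. Of Pax genes, 8 of 9 were in K27R peaks, 8 in K27M and 6 in EZHIP. Of T-box genes, 6 of 12 were in K27R, 5 in K27M and 5 in EZHIP. Of Sox genes, 14 of 18 were in K27R, 11 in K27M and 10 in EZHIP. Among members with a K27R peak, the EZHIP share of 61.9% in Fox compared with 75.0% in Pax, 83.3% in T-box and 71.4% in Sox, and the intervals of all 4 families overlapped.

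The share of marked genes differed between groups of Fox subfamilies, although Foxc, Foxi, Foxn, Foxo and Foxp each held both marked and unmarked members. All 3 Foxa genes, pioneer factors of endoderm, were in K27R and K27M peaks, and Foxa1 and Foxa2 were also in EZHIP peaks. Of the 13 genes grouped by neural, neural crest, sensory or early embryonic roles, which include Foxb, Foxd, Foxe and Foxi genes, 10 were in K27R, the same 10 in K27M and 7 in EZHIP. Of the 7 Foxc, Foxf, Foxl, Foxq and Foxs genes, 5 were in K27R, the same 5 in K27M and 3 in EZHIP. Of the 10 Foxj, Foxk, Foxm and Foxn genes, 1 was marked, Foxn4, a factor of retinal and spinal interneurons, and it was in all 3 lists. Of the 7 Foxo, Foxp and Foxr genes, 2 were in K27R (Foxo6 and Foxp4), 1 in K27M (Foxo6) and 0 in EZHIP. Of all protein-coding genes, 28.2% were in K27R, 8.94% in K27M and 7.96% in EZHIP, so the K27R share of the Foxo, Foxp and Foxr genes was near that of all genes. The groups are small. These subfamilies were grouped by role with earlier results known and their differences were not tested.

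**Figure D2:**
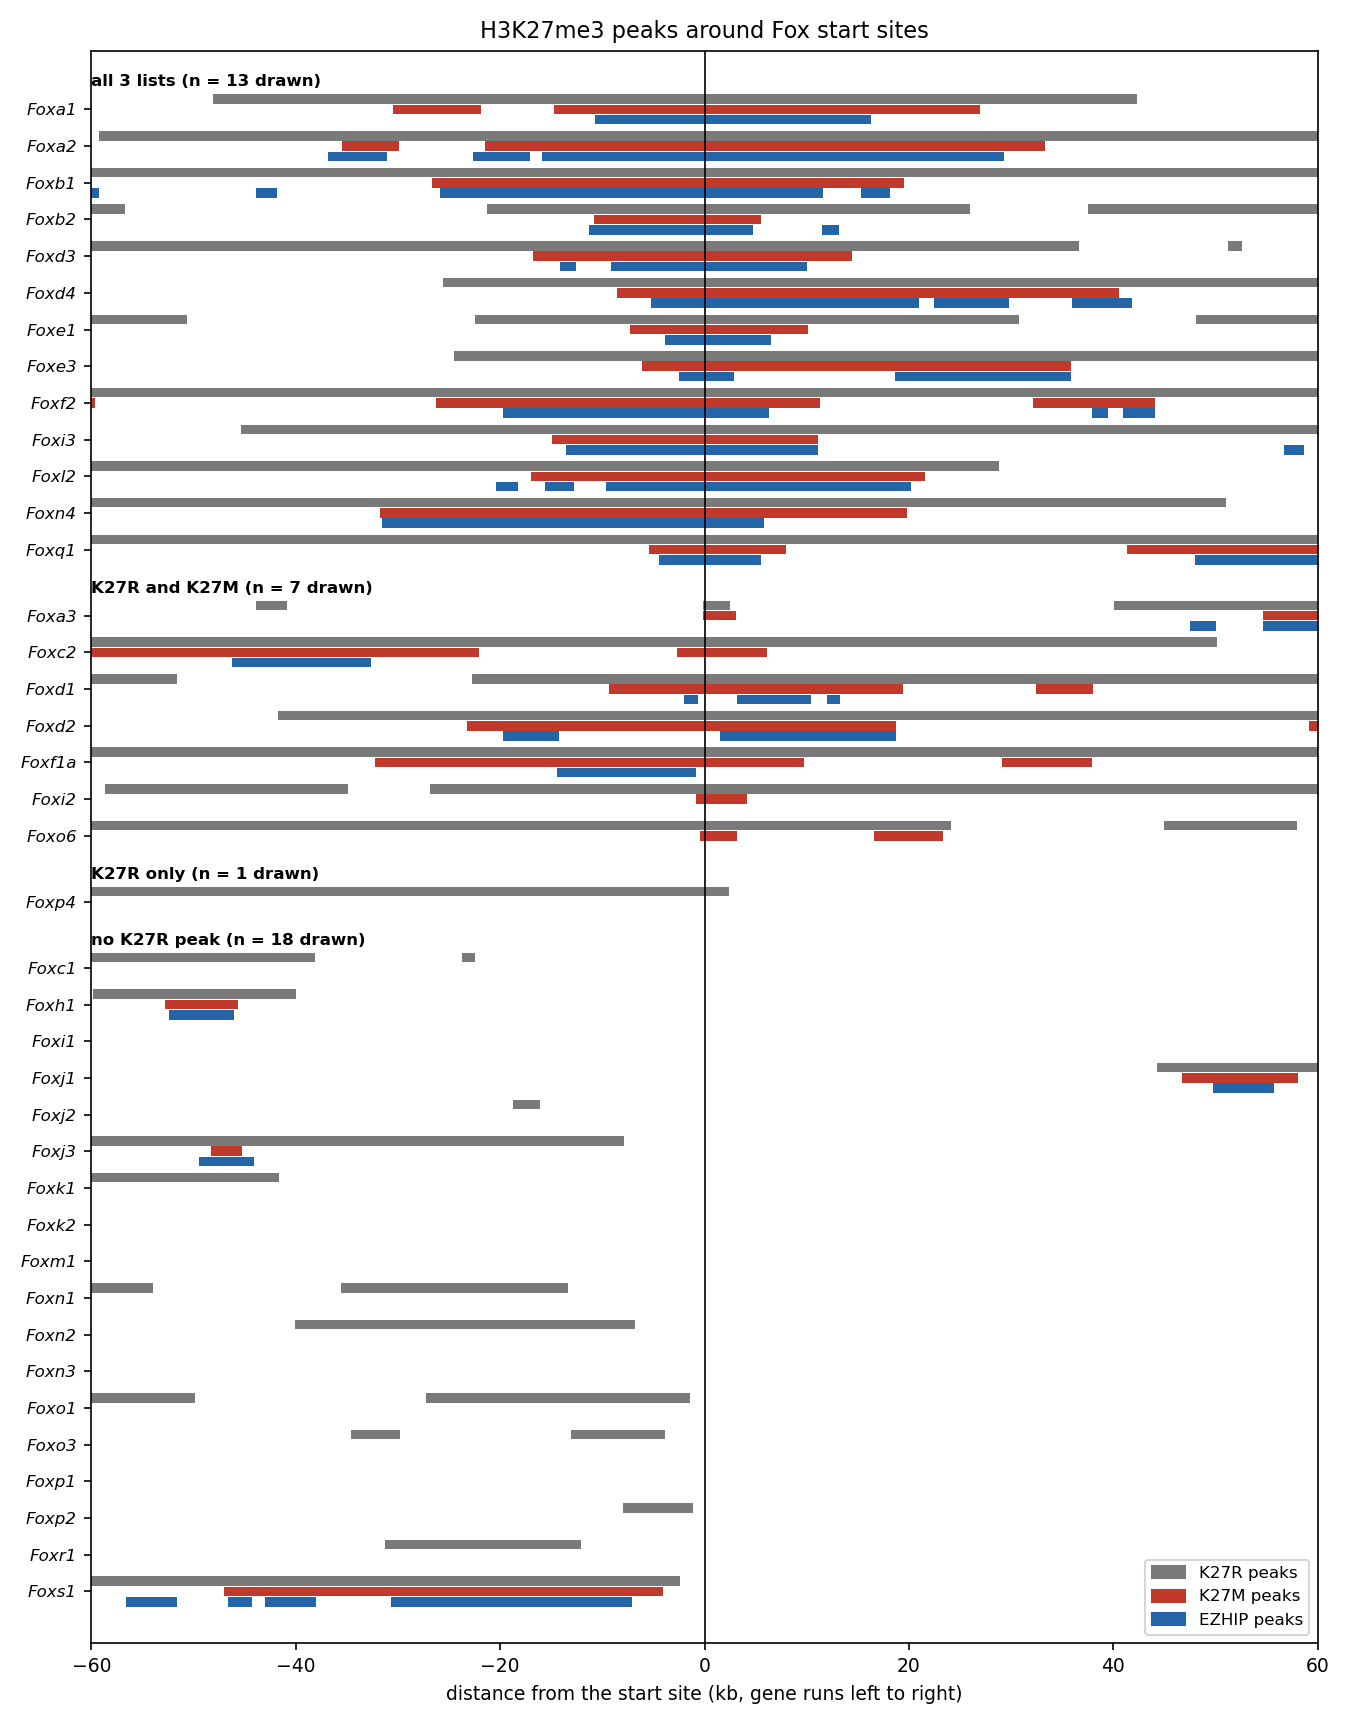
Peaks of the K27R (grey), K27M (red) and EZHIP (blue) lists within 60 kb of the start site of 39 of the 40 members (x axis, distance in kb, every gene drawn left to right; y axis, members grouped by which lists hold the start site). Around the 13 members in all 3 lists the residual peaks straddle the start site inside a wider K27R peak, and the members drawn without a K27R peak over the start site have no peak over the gene.

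In the 13 members held by all 3 lists the K27M and EZHIP peaks sat inside the K27R peak, around the gene. Foxa2, needed for endoderm and the notochord, lay in a K27R peak of 178.2 kb, a K27M peak of 54.8 kb (chromosome 2, 147839401 to 147894200) and an EZHIP peak of 45.2 kb (147843401 to 147888600), the widest of the family in both residual lists. Foxa1, its relative in liver, prostate and breast epithelium, lay in peaks of 90.4, 41.6 and 27 kb. Foxd3, a factor of neural crest and pluripotent cells, lay in the widest K27R peak of the family, 403.6 kb, of which a K27M peak of 31.2 kb and an EZHIP peak of 19.2 kb (chromosome 4, 99313801 to 99333000) remained over the gene. In each of these 3 the whole gene body was covered in all 3 lists.

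Foxb1, a gene of the developing hypothalamus, lay in K27R, K27M and EZHIP peaks of 366.6, 46.2 and 37.4 kb. Its K27R region held 12 EZHIP peaks, the most of any Fox region, against 4 K27M peaks. Foxl2, required in granulosa cells of the ovary, lay in peaks of 381.8, 38.6 and 29.8 kb. Foxn4 lay in peaks of 124.4, 51.6 and 37.4 kb, and here the EZHIP peak (chromosome 5, 114718001 to 114755400) covered 29.6% of the gene while the K27M peak covered all of it. Foxn4 was the only one of the 13 whose gene body was not wholly in the EZHIP peak.

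Foxi3, a gene of the placodes and pharyngeal arches, lay in peaks of 224.6, 26.0 and 24.6 kb. Foxd4 lay in peaks of 199.8, 49.2 and 26.2 kb, and its K27M peak also held the start sites of Pgm5 and Gm10053. Foxe1, the thyroid and palate factor, lay in narrower peaks of 53.2, 17.4 and 10.4 kb. Foxb2 lay in peaks of 47.2, 16.4 and 16.0 kb (K27M chromosome 19, 16942601 to 16959000; EZHIP 16943401 to 16959400), the closest match of the residual lists. Foxe3, Foxq1 and Foxf2 shared K27R regions with other members and are given below.

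Over these 13 members the K27M peak was wider than the EZHIP peak in 13 of 13, and the EZHIP peak lay wholly inside the K27M peak in 12. The exception was Foxb2, where the EZHIP peak ran past the K27M peak on the upstream side. The ratio of K27M to EZHIP width had a median of 1.38, from 1.02 at Foxb2 to 7.78 at Foxe3. The K27R peak was a median 7.72 times as wide as the K27M peak (2.17 to 21.7) and 9.13 times as wide as the EZHIP peak (2.95 to 60.9). Over all genes in all 3 lists the median peak was also wider in K27M (12.4 kb) than in EZHIP (8.60 kb), so this order was not particular to Fox genes. The K27M list held no gap under 5000 bp on the autosomes and the EZHIP list held 880. At Foxl2, gaps shorter than any in K27M parted the EZHIP peak from others beside it. Joined, they would span more than the K27M peak of 38.6 kb, so the counts of 13 and 12 depend on joining. Joining EZHIP peaks up to 10000 bp apart would also make EZHIP the wider at Foxb2 and, with K27M peaks left unjoined, at Foxa2. At Foxa2 the K27M peaks would join under the same setting, and K27M would then stay the wider. At Foxb1, Foxd3 and Foxd4 the joined EZHIP peak would stay narrower. The pairs were not recounted after joining, and what part of the greater K27M width joining set was not tested.

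**Figure D3:**
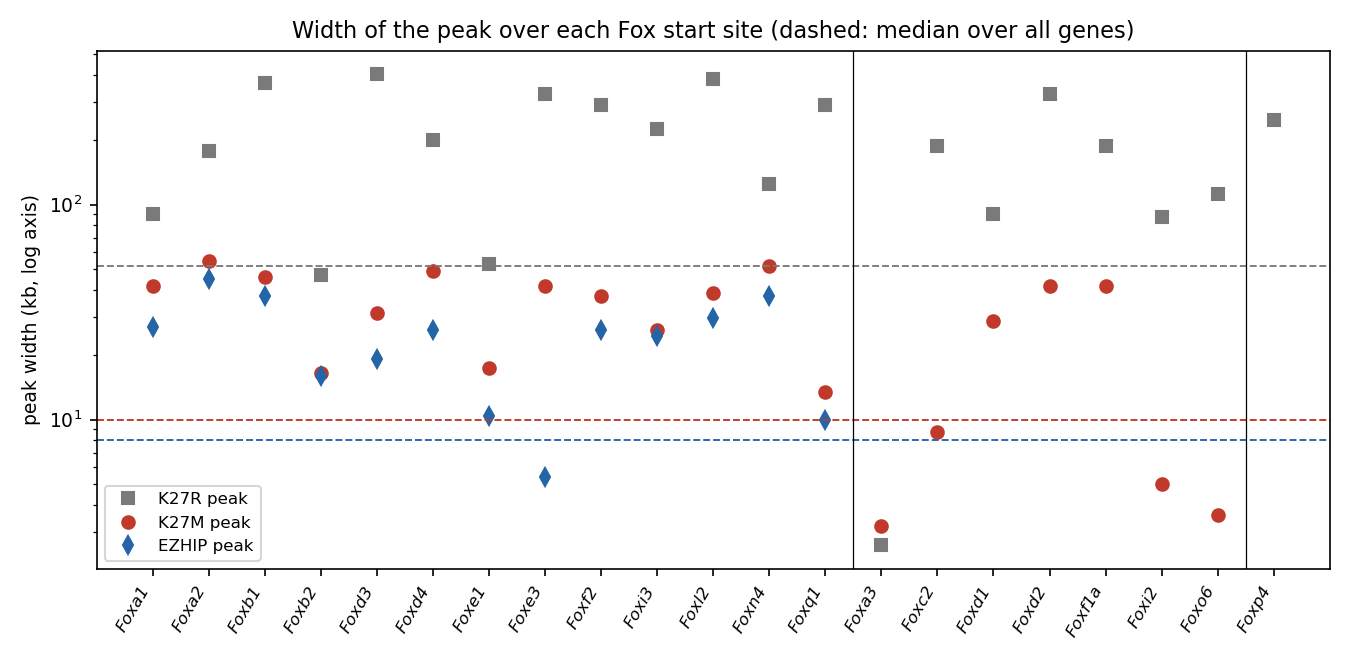
Width of the peak over each start site (y axis, kb, log axis) for the 21 members in K27R (x axis, by symbol; vertical lines divide members in all 3 lists, in K27R and K27M, and in K27R only). Dashed lines are the medians over all genes (K27R 51.8 kb, K27M 10.0 kb, EZHIP 8.0 kb); most Fox peaks lie above them, and Foxa3 is the member whose K27M peak is wider than its K27R peak.

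The median peak over Fox start sites was wider than that over start sites in general, as were the Pax, T-box and Sox medians. With each peak counted once, the median width was 182.8 kb in K27R (18 peaks, 90.4 to 290.2), against 51.8 kb over all genes. It was 31.2 kb in K27M (19 peaks, 13.4 to 42.0), against 10.0 kb, and 26.0 kb in EZHIP (13 peaks, 10.4 to 37.4), against 8.0 kb. In the same order of lists the medians were 338.4, 45.1 and 45.3 kb for Pax, 90, 21.4 and 15.6 kb for T-box and 76.3, 10.6 and 11 kb for Sox genes. These rest on few peaks. In K27R the intervals for Pax (8 peaks, 38.0 to 616.0), T-box (6 peaks, 20.8 to 165.6) and Sox (14 peaks, 32.8 to 170.2) each contained 51.8 kb. The Fox peak was wider than the median peak over a protein-coding start site in 16 of 18 cases in K27R, 15 of 19 in K27M and 12 of 13 in EZHIP. The gene body was covered whole in K27M in 18 of the 21 members with a K27R start site (85.7%) and in EZHIP in 12 (57.1%), against 9.37% and 6.62% of all genes with a K27R start site. Whole cover takes less width at a short gene, and these shares were not matched for gene length. Many marked members are short, such as Foxe3 (0.977 kb) and Foxd3 (2.37 kb). Those not covered whole in K27M were Foxa3 (10.3 kb), Foxo6 (20.3 kb) and Foxp4 (57.5 kb), although Foxn4 (19.6 kb) was. Over all members, a K27R peak touched the gene body of 21 of 40 (34.2% of all genes), a K27M peak 20 (11.3%) and an EZHIP peak 14 (10.9%).

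The 7 members kept in K27M and not in EZHIP were Foxd1, Foxd2, Foxf1a, Foxc2, Foxa3, Foxi2 and Foxo6, and they fell into a set with EZHIP peaks close by and a set without. Foxd1, a marker of renal stroma, had a K27M peak of 28.8 kb (chromosome 13, 99114801 to 99143600). In EZHIP cells peaks of 1.40 kb (99122201 to 99123600) and 7.20 kb (99127401 to 99134600) lay on either side of the gene (99124200 to 99126660), so that the start site was 0.60 kb from a peak and the whole gene lay in a gap of 3.80 kb. A gap of this length is shorter than any between K27M peaks, and Foxd1 entered the EZHIP set when peaks up to 10000 bp apart were merged.

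Foxf1a, needed in the mesenchyme of lung and gut, had an EZHIP peak of 13.6 kb that ended 0.886 kb upstream of its start site, inside a K27M peak of 42.0 kb. Foxd2, which is expressed in kidney and facial mesenchyme, had an EZHIP peak of 17.2 kb that covered 42.6% of the gene at its far end and stopped 1.50 kb short of the start site. These 3 members would count as kept if a peak within 5000 bp of the start site were enough, which gave 16 of 40 members in EZHIP. At all 3 the K27M peak ran through the start site and was 28.8 to 42.0 kb wide.

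The other 4 members had narrow K27M peaks and no EZHIP peak near. Foxc2, a factor of lymphatic vessels, had a K27M peak of 8.80 kb, and the nearest EZHIP peak was 32.7 kb away. Foxi2 had a K27M peak of 5.00 kb (chromosome 7, 142601201 to 142606200) and no EZHIP peak within 1911.8 kb. Foxo6, the Foxo gene of the brain, had a K27M peak of 3.60 kb over the start site (chromosome 4, 119956801 to 119960400), a second of 6.80 kb at the far end of the gene and its nearest EZHIP peak 71.2 kb away. Foxa3, a liver factor, had a K27R peak of 2.6 kb and a K27M peak of 3.20 kb (chromosome 7, 19605801 to 19609000), the narrowest of the family in each list, with the nearest EZHIP peak at 47.5 kb. The median K27M width was 8.80 kb over the 7 members lost in EZHIP and 38.6 kb over the 13 kept, against 5.40 kb and 12.4 kb for all genes of these outcomes. With a minimum peak width of 5000 bp, Foxa3 left the K27R and K27M sets and Foxo6 the K27M set.

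Foxp4, a repressor of lung and neural development, was the member in K27R alone. Its start site lay 2.39 kb inside the edge of a K27R peak of 248.4 kb that ran upstream (chromosome 17, 48059201 to 48307600) and covered 4.16% of the gene body. That region held 4 K27M and 5 EZHIP peaks, the nearest 90 and 88.4 kb upstream of the Foxp4 start site, and the nearest peaks of any region were 86.0 and 86.6 kb away. Its promoter, shown above, had the most CG of the 4 printed, and a CpG island of 1533 bp lay at its start site.

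Neighbouring Fox genes shared K27R regions and, in 1 of 3 such regions, differed in EZHIP. In all, the 21 marked members lay in 18 K27R regions, of which 3 held a pair of Fox start sites. Every one of the 18 held at least 1 K27M peak and 16 an EZHIP peak, the exceptions being those of Foxa3 and Foxi2. K27M peaks covered a median 24.2% of a region (5.68 to 100) and, in the 16, EZHIP peaks covered 15.4% (5.17 to 37.3).

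Foxd2 and Foxe3, the lens factor, lie 17.2 kb apart in a K27R region of 328.6 kb (chromosome 4, 114294601 to 114623200). A K27M peak of 42.0 kb (114562801 to 114604800) held both start sites. EZHIP cells had separate peaks of 17.2 kb (114562801 to 114580000) and 5.40 kb (114595801 to 114601200) with a gap of 15.8 kb, which contained the Foxd2 start site, while the Foxe3 start site was in the smaller peak. Thus Foxe3 was kept in both lines and Foxd2 in K27M alone.

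Foxf1a and Foxc2 lie 31.8 kb apart in a K27R region of 187.4 kb (chromosome 8, 123502801 to 123690200). In K27M cells they had separate peaks of 42.0 kb (123576001 to 123618000) and 8.80 kb (123637401 to 123646200), 19.4 kb apart. In EZHIP cells the region held 1 peak of 13.6 kb (123593801 to 123607400) and neither start site was in it. The start site of Mthfsd, a protein-coding gene near Foxc2, was in K27R but in neither residual list.

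On chromosome 13, Foxq1, a gene of hair and epithelium, Foxf2, a gene of gut and palate mesenchyme, and Foxc1, a gene of mesoderm and the anterior eye, lie in a row, 67.6 kb and 180.8 kb apart. Foxq1 and Foxf2 shared a K27R region of 290.2 kb (31570201 to 31860400), and each had its own residual peak: 13.4 kb in K27M and 10.0 kb in EZHIP at Foxq1, and 37.6 kb and 26.0 kb at Foxf2. The region ended 38.1 kb before the Foxc1 start site. Foxc1 had no peak on the gene in any list, and a K27R peak of 1.20 kb at 22.5 kb upstream was the nearest, with K27M and EZHIP peaks 136.7 kb away. Foxc1 has a CpG island of 2655 bp at its start site, longer than those of Foxq1 (2275 bp) and Foxf2 (1746 bp).

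**Figure D4:**
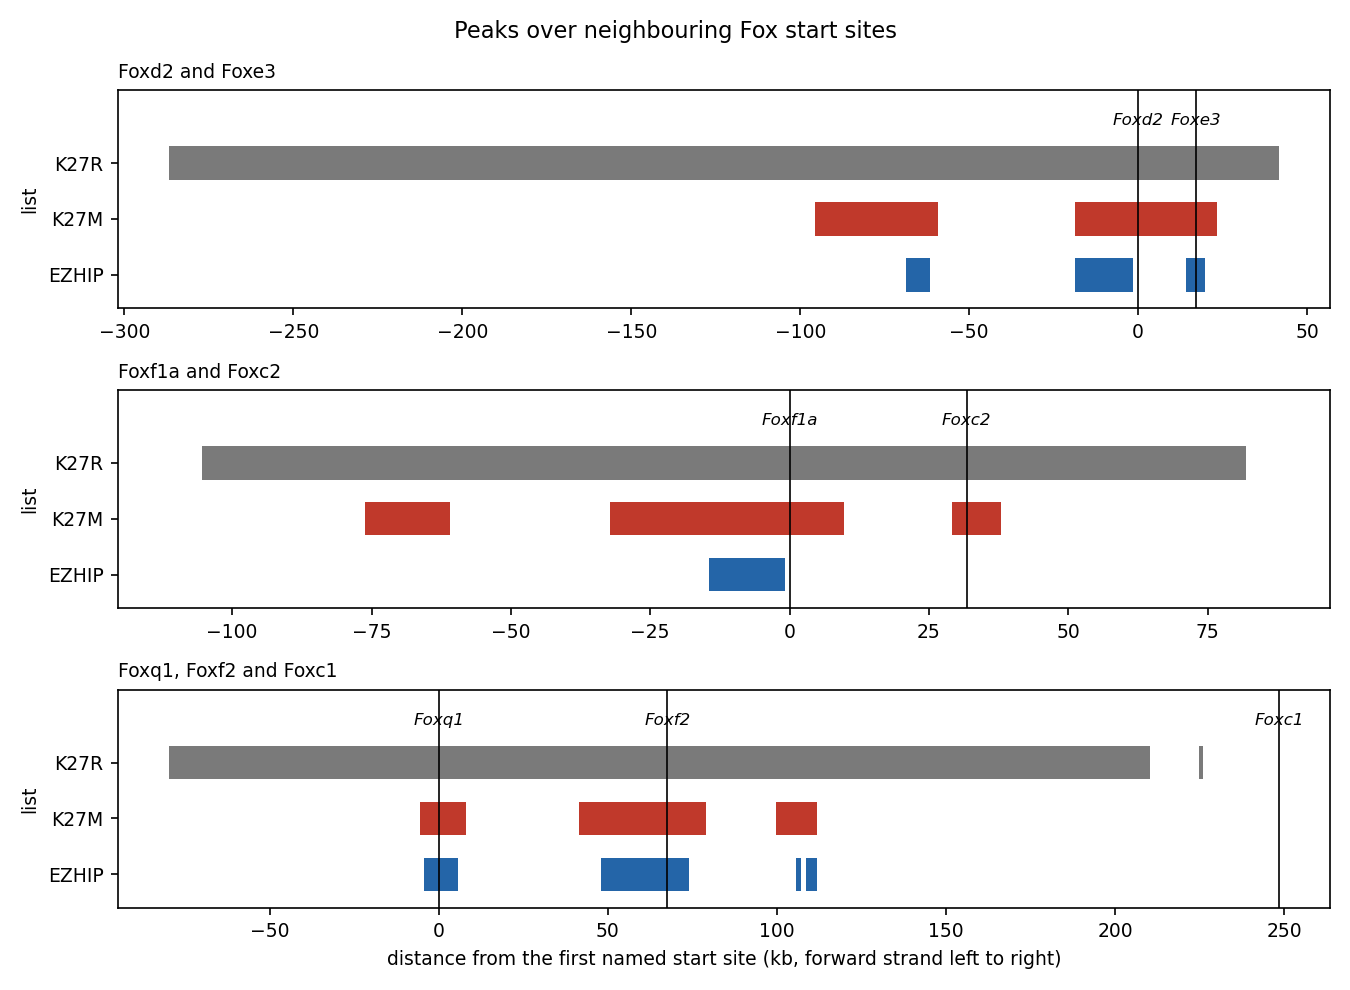
Peaks of each list (y axis) over neighbouring Fox genes, as distance in kb from the first named start site (x axis, forward strand left to right); vertical lines mark start sites. EZHIP peaks split where 1 K27M peak spans Foxd2 and Foxe3, end just before Foxf1a, and lie over Foxq1 and Foxf2 as K27M peaks do, while Foxc1 lies outside all peaks.

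The 19 members without a K27R peak at the start site had none on the gene body either. This held for 91.6% of all 15377 genes without one, and for all 8 of these members with a gene of at least 50 kb, against 84% of such genes. The 540.6 kb of Foxp2, a gene of speech and lung development, the 341.2 kb of Foxp1 and the 255.1 kb of Foxn3 thus held no K27R, K27M or EZHIP peak. The set contained genes used in most cells, such as Foxo1 and Foxo3, the insulin-regulated factors, Foxk1 and Foxk2, which act in metabolism, and Foxm1, which drives mitotic genes. It also contained genes of restricted lineages: Foxj1 of motile cilia, Foxn1 of the thymus, Foxi1 of inner ear and kidney, and Foxh1 of Nodal signalling.

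A K27R peak lay within 10 kb of the start site in 6 of the 19 (31.6%), against 18.6% of all genes without a K27R start site. In each of the 6 it stopped upstream. Only at Foxs1 (1.31 kb) could such a peak have lain downstream of the unmarked gene, as the others span at least 49.8 kb. The distance was 1.15 kb at Foxp2, 1.46 kb at Foxo1, 2.46 kb at Foxs1, 3.84 kb at Foxo3, 6.85 kb at Foxn2 and 7.87 kb at Foxj3. A K27R peak within 10 kb with none on the gene body was seen in 13.9% of all genes without a K27R start site. The peaks were 6.80 kb (Foxp2), 25.8 kb (Foxo1), 223.4 kb (Foxs1), 9.20 kb (Foxo3), 33.2 kb (Foxn2) and 99.8 kb (Foxj3) wide. Over the 19 members the nearest K27R peak was upstream in 16, where downstream distances must also pass the unmarked gene.

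Foxs1 was the member of the 19 with residual peaks close by. A K27M peak of 43.0 kb began 4.06 kb upstream and an EZHIP peak of 23.6 kb 7.06 kb upstream, and both lay over the start sites of Dusp15 and Ttll9. For the other 18 the nearest K27M peak was 45.3 kb (Foxj3) to 3611.7 kb (Foxp2) away.

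Base composition at the start site is independent of how members were chosen. The CpG observed to expected ratio compares the CG count of a sequence with that given by its C and G content, and it was taken within 500 bp of the start site. Its median was 0.726 in the 13 members in all 3 lists (0.432 to 0.923), 0.786 in the 7 in K27R and K27M (0.562 to 0.995), 0.858 at Foxp4 and 0.694 in the 19 without K27R (0.180 to 1.05). The groups overlapped, and the ratio did not separate members kept in EZHIP from those lost. For all genes the medians were 0.668, 0.636, 0.281 and 0.618, so the low value of genes in K27R alone was not seen at Foxp4.

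**Figure D5:**
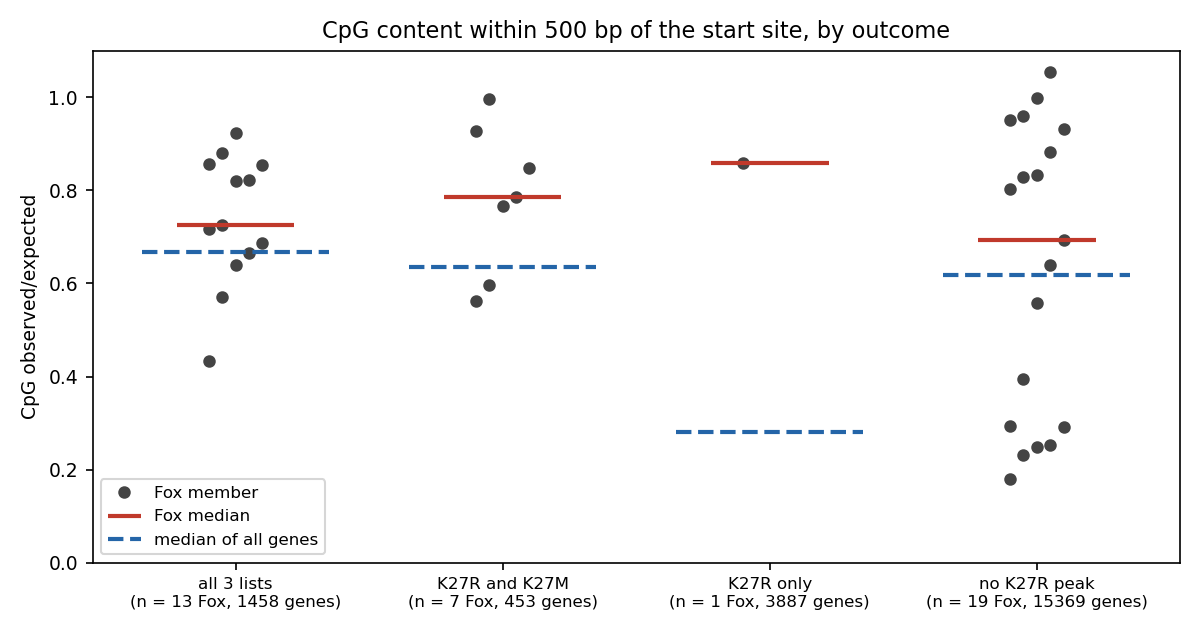
CpG observed/expected ratio within 500 bp of the start site (y axis) for each Fox member (points) by which lists hold the start site (x axis). Red lines are Fox medians and dashed blue lines medians of all genes with that outcome; members without a K27R peak span 0.180 to 1.05 and the groups overlap.

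Many Fox start sites carried long CpG islands. An island lay within 500 bp in 33 of 40 members (82.5%), against 54.3% of all genes, and one over 1000 bp long in 24 (60%), against 13.5%. Long islands were found at 10 of 13 members in all 3 lists, 6 of 7 in K27R and K27M, Foxp4, and 7 of 19 without K27R (36.8%). For all genes with these outcomes the shares were 31.8%, 31.3%, 4.63% and 13.6%. The 7 members with no island were Foxd4, in all 3 lists, and Foxp1, Foxi1, Foxn1, Foxk2, Foxn3 and Foxh1, all without K27R. Foxo3, outside K27R, had the longest island of the family, 3822 bp.

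The long islands bear on how the kept shares read against other genes. Among all 805 genes with a K27R start site and an island over 1000 bp, 75.3% were in K27M and 60% in EZHIP, and among the 17 such Fox genes 94.1% (71.3 to 99.9) and 58.8% (32.9 to 81.6). The EZHIP share was thus near that of other genes with long islands, and the K27M interval contained their share. A further comparison also required a K27R peak of at least 47.2 kb, the narrowest over the Fox members in all 3 lists. A limit set this way could drop no Fox member held by all 3 lists. It dropped Foxa3, which was not in EZHIP, so no conclusion is drawn from the Fox shares under it. Of 549 such genes 81.8% were in K27M and 71.6% in EZHIP. Of the 16 such Fox genes 93.8% (69.8 to 99.8) and 62.5% (35.4 to 84.8) were, and both intervals contained the share of all genes. Among the 5236 genes without a long island the shares were 24.9% and 23.3%, and of the 4 such Fox genes (Foxd4, Foxn4, Foxi2 and Foxa1) all 4 were in K27M and 3 in EZHIP.

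Many Fox genes have the coding sequence in a single exon. Of the 13 such members, 10 were in K27R, 10 in K27M and 7 in EZHIP. Of the 27 members with more coding exons, 11 were in K27R, 10 in K27M and 6 in EZHIP. Of all genes with a single coding exon, the share with the start site in a peak was 28.6% (K27R), 6.39% (K27M) and 4.96% (EZHIP). For genes with more coding exons the shares were 28.1%, 9.46% and 8.57%. The difference between the Fox classes was not tested, and their intervals overlapped (46.2 to 95.0 and 22.4 to 61.2 in K27R). The forkhead core motif GTAAACA, read on both strands in the 300 bp before the start site, was found at Foxo1 and Foxa1, 2 of 40 members (5.00%), against 3.43% of all genes.

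Within 10 kb of a Fox start site lay the start sites of 30 other annotated genes, 20 of them not protein-coding, and 24 were in the same lists as the member. Beside members without K27R these were 14 of 14, and beside members in K27R 10 of 16, with 15 of the 16 in K27R. Of all protein-coding genes 28.2% are in K27R. No share was computed for start sites this close to those of other genes, so the agreement has no like background. Most of the 24 lie on the opposite strand, such as Foxl2os, 297 bp from Foxl2 and in all 3 lists. The 6 that differed were 9130410C08Rik by Foxd2 and 1110050K14Rik by Foxf1a, which were in EZHIP peaks where the Fox start site was not, and 4732418A04Rik by Foxo6, Sympk by Foxa3, Mthfsd by Foxc2 and Gm11377 by Foxq1, which were in fewer lists. Sympk begins 839 bp from Foxa3 and was in no list, so the narrow Foxa3 peaks ended between these start sites.

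Genes that act on Foxo proteins were rarely marked. Of 23 genes of insulin, AKT and Foxo regulation, 0 had the start site in a K27M peak and 1 in an EZHIP peak, Sgk3, a kinase gene that was also in K27R. Sgk1, a related kinase gene, was in K27R alone. The receptors Insr and Igf1r and the kinases Akt1 and Akt2 were in no list, as were Foxo1 and Foxo3.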

How the data were processed

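H3K27me3 ChIP-Seq of MNase-digested, crosslinked MEF chromatin was used, with 1 library per group and groups taken from sample titles. Per the labels and the study's methods, the authors aligned reads with Bowtie 1.0.0 to mm9, with chromatin of another species as a spike-in, and called broad peaks per library with MOSAiCS-HMM. Whether scaling entered the calls is not given in the sources used here. The deposited lists hold peak positions only, with no counts, score or p-value, in 200 bp bins. Positions are printed from 1.

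Start sites were gene 5′ ends in GENCODE vM1 (NCBIM37, mm9). Sequences were read from that genome. CpG islands were segments scoring 17 per CG and -1 per other base, over 200 bp, at least 50% G+C and a ratio above 0.6. Python 3.11.15, numpy 2.4.6 and scipy 1.17.1 were used. The interval and island tools were tested on simulated data. The members, lists and role groups were chosen with earlier results of these data known. All members entered every count; printed promoters are from the member with the median CpG ratio of its outcome. Alternatives were other start sites, distances, minimum widths, merging, 1 member per region and a wider CpG window. A few single-gene results are not reported here.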

Additional observations from a re-analysis of the deposited data

How the results depend on the processing

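All 75 alternative values, computed from other transcript starts, a peak within 5000 bp, minimum widths of 2000 and 5000 bp, joining across gaps of at most 10000 bp, 1 member per K27R region, 50% of the gene body and a 1000 bp CpG window, lay within the 95% interval of the value reported. The EZHIP share ranged from 29.7% (1 member per region) to 40% (within 5000 bp), and that of K27R-covered members kept in K27M from 84% (within 5000 bp, when Foxs1, Foxo1, Foxp2 and Foxo3 entered K27R) to 95.2%. The share in neither residual list moved from 4.76% to 16.0% and that in K27M and not EZHIP from 33.3% to 20% within 5000 bp. These intervals are wide, so this says little about small shifts. No paired analysis was possible because each group has 1 library, and for the same reason no library could be left out. Depth is unknown, so a start site outside peaks may be unmarked or below the caller's threshold, and the shortest gaps between peaks differ between lists.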
